A study of Mus musculus with 8 samples.

Results

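The Myc network is a group of basic helix-loop-helix leucine zipper factors that compete for partners and for the same DNA site. Its 10 genes taken here were Myc, Mycn, Max, Mxd1, Mxd3, Mxd4, Mxi1, Mnt, Mlx and Mga, chosen by gene name, each represented by its brightest array probe. They are 10 of 19057 named genes on the array. Myc and Mycn bind DNA as dimers with Max and activate genes of growth and ribosome production. The Mxd proteins, Mxi1 and Mnt also pair with Max, bind the same site and repress through Sin3 and histone deacetylases, and Mlx is the partner of the glucose-sensing factors MondoA and ChREBP. In the gut, Myc is a target of Wnt signalling that is active in crypts, and loss of Apc is known to raise it, whereas Mxd1 is known from cells that have left the cycle.

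RNA came from mouse intestinal organoids, 3-dimensional epithelial cultures, of C57Bl animals aged 2 to 3 months. All carried Lgr5-EGFP-IRES-CreER and Apcflox/flox, so Cre was made in Lgr5 stem cells and could delete Apc after tamoxifen, which was given for 2 days. R-Spondin1, a Wnt agonist, was then withheld for 5 days in the day 7 group and for 18 days in the day 20 group, which selects cultures able to grow without it. Each group had 4 samples, each on 1 Illumina beadchip, and no culture with intact Apc was among them, so the level before Apc loss is not known here and time since deletion cannot be told apart from time in culture. The labels do not say whether samples came from separate animals or cultures, and sex-linked signal given below shows only that more than 1 animal contributed. The p-values therefore measure no more than how far these arrays differ, and that variation may in part be technical. Values are normalized log2 intensities, and arrays carry no counts, so their number limits the precision.

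Of the markers fixed for the epithelium, 8 of 8 were tested, and their summed intensity was 29369 to 36400 at day 7 and 34034 to 39600 at day 20. Cdx1 of this list rose by 0.47 (limma adjusted p = 0.0328). Of 5 leukocyte markers with a probe, Ptprc and Itgam were at background on every array, Cd3e was above the limit on 7, and the summed intensity was 537 to 555 at day 7 and 541 to 567 at day 20. Of 7 fibroblast markers with a probe, Col1a1 was at background on every array and 3 were tested, with none called. Acta2, a smooth muscle actin gene of that list, was above the limit on all arrays, at 7.94 to 9.98 on day 7 and 7.03 to 7.90 on day 20 (-1.66, adjusted p = 0.0545). Of 9 tested enterocyte markers 5 fell, against 2.33% of all genes called lower, and the summed intensity of the 11 with a probe was 10838 to 101952 at day 7 and 1441 to 1693 at day 20, with Fabp1 and Fabp2 at background throughout. Of 6 tested goblet markers 4 fell (10732 to 36370 summed at day 7, 2009 to 4132 at day 20). So did 8 of 8 tested enteroendocrine markers (7985 to 12842 and 1270 to 1533, for the 10 with a probe). Neurod1 and Pax6 of that list were too dim to be tested. A gene was tested if above the limit on at least 4 arrays. Chga, Cck and Sst, and Apoa4 among the enterocyte markers, exceeded it on all day 7 arrays and on no day 20 array. They entered the test only through the day on which they were high, so these counts are descriptive. Of 8 tested stem cell markers 4 fell, with a list median of -0.77: Lgr5 by 0.82, Olfm4 by 1.80, Slc14a1 by 1.52 and Rgmb by 1.01 (adjusted p = 0.0215, 0.0283, 0.00527 and 0.00366). The others gave no call. Smoc2 (-0.72), Tnfrsf19 (-0.10) and Axin2 (-0.065) were lower by mean, and Ascl2 (0.0875) was higher. Of 5 tested Paneth markers 1 rose, Mmp7 by 0.83 (0.0164), against 2.51% of all genes called higher. The Paneth list median was -0.38. Lyz1, Ang4, Pla2g2a and Itln1 were lower by mean without a call (-1.06, -0.45, -0.38 and -0.35). Marker genes named here were picked after their values were seen. The part of these cell types in the results on the network was not tested. In bulk RNA, fewer cells of a type and less RNA per cell cannot be told apart. Xist, the transcript of the inactive X chromosome, was at 9.39 to 10.41 on 6 arrays and at 6.68 and 6.74 on day 20 replicates 1 and 4, where Eif2s3y, on the Y chromosome, read 8.34 and 8.51. The day 20 arrays therefore held a pair of replicates, 1 and 4, that differed from the others of that day in sex-linked signal. On the 6 Xist-positive arrays the same Eif2s3y probe was at background (6.66 to 6.73). A dimmer Eif2s3y probe did not set the pair apart, at 6.77 and 6.74 against 6.64 to 6.83 on the other arrays. By Xist and the brighter Eif2s3y probe, the pair carried male signal and the 6 arrays female signal, though sex is not among the labels used here. More than 1 animal therefore contributed, and the pair did not come from the animals of the day 7 arrays. Sex and day are partly confounded and cannot be told apart on the pair. With the 6 Xist-positive arrays alone, 4 enterocyte, 2 goblet, 8 enteroendocrine and 2 stem cell markers were called lower. There, 1 Paneth marker and no epithelium marker was called higher. Each tested member is also given without that pair.

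Among the members, Max, Mlx, Mnt and Mxd4 carried the canonical E-box, the site that Myc, Mxd and Mlx dimers bind, near their own start sites. RefSeq promoter windows (mouse assembly GRCm38.p6, from 250 bases before to 50 bases after each start) were found for 9 of the 10 members, without Myc. The letters CACGTG, the same on both strands, stood in the windows of 4 of these 9 genes (44.4%) and of 2187 of all 27025 genes (8.09%). In the Myc-induced target list described below they stood in 11 of 30 (36.7%). Windows of the members held 55 to 76.7% G and C against a median of 52.7% over all windows, so base composition differed too, and a match of letters is a description of sequence and not of binding. The 60 bases around each match are shown 5′ to 3′ on the gene's strand with the E-box in capitals.

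Max, chr12:76962219-76962278, minus strand: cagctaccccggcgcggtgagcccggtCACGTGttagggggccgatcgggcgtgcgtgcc
Mlx, chr11:101087223-101087282, plus strand: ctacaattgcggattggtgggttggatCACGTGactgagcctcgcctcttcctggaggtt
Mnt, chr11:74830774-74830833, plus strand: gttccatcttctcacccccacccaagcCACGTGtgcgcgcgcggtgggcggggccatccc
Mxd4, chr5:34187897-34187956, minus strand: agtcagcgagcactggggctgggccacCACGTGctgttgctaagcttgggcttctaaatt

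The first base of the E-box lay 3 bases before the annotated start of Max, 40 before that of Mlx, 123 before that of Mnt and 219 before that of Mxd4. These 4 genes had log2 changes of -0.03 for Max, -0.10 for Mlx, 0.09 for Mnt and -0.49 for Mxd4, so their values did not share a sign, and none passed the test. The variant E-box CACGCG, searched on both strands, stood in the window of 1 of the 9 genes, Mga (11.1%), and of 10.5% of all genes.

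No member of the network passed the test between day 7 and day 20. Of the 10 genes, 9 exceeded the background limit of 6.796 on at least 4 arrays and were tested, and 0 of 9 passed (limma, Benjamini-Hochberg adjusted p under 0.05 over all 12466 genes tested), against 4.85% of all genes. At an unadjusted p under 0.05, Mxd4 and Mxi1 passed, 2 of 9 (22.2%) against 20.4% of all genes. Groups did not overlap for 1 member, Mxi1 (11.1%), against 13.1% of all genes. Both shares lay near the background. By mean, 5 members were higher and 4 lower at day 20, with a median log2 change of 0.01, and 0.005 over all genes. The median size of a change regardless of sign was 0.10 for the members and 0.10 for all genes. The count of changed genes behind 4.85% was 604, and dropping day 7 replicate 1 or 3 left 301 or 349, and dropping day 20 replicate 2 or 4 left 373 or 353. None of these fits called a member.

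**Figure D1:**
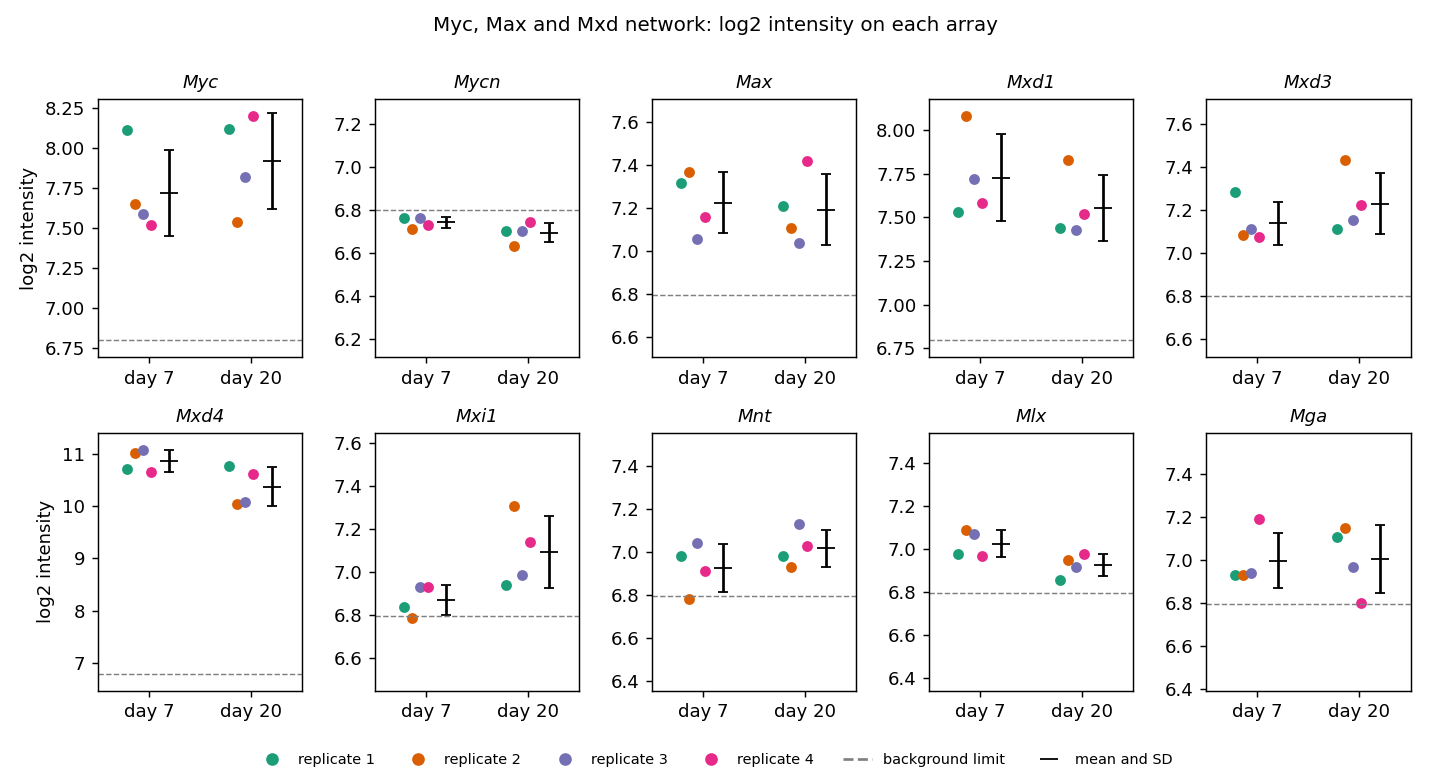
Normalized log2 intensity of the 10 network genes on each array, by day, with replicates in colour, the mean and SD (n = 4 each) as black marks and the background limit of 6.796 as a dashed line; the vertical range differs between panels. Mycn lies below the limit on all 8 arrays, only Mxi1 has groups that do not overlap, and for Mxd4 day 20 replicates 2 and 3 lie below all other arrays.

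Myc, the activator at the centre of the network, was at 8.11, 7.65, 7.59 and 7.52 on day 7 replicates 1 to 4. At day 20 it was at 8.12, 7.54, 7.82 and 8.20. The days overlapped, with high values on day 7 replicate 1 and day 20 replicates 1 and 4. Its mean went from 7.72 ± 0.27 to 7.92 ± 0.30 (SD, n = 4 each), a log2 change of 0.20 (SE 0.18, limma adjusted p = 0.58). The 95% confidence interval ran from -0.20 to 0.61, so these arrays allow anything between a fall to 0.87 times and a rise to 1.52 times on the deposited scale. With the 6 Xist-positive arrays alone the change was -0.04 (adjusted p = 0.95), since day 20 replicates 2 and 3 averaged 7.68 and replicates 1 and 4 averaged 8.16. With 1 array dropped it ran from 0.11 (day 20 replicate 4) to 0.33 (day 7 replicate 1). The other Myc probe lay below the limit on all arrays (6.59 to 6.78) and carries no level.

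Mycn, which can stand in for Myc in embryonic and neural cells, was at 6.71 to 6.76 at day 7 and 6.63 to 6.74 at day 20. It had 1 probe, not above background on any array, and was not tested. Mycl, the remaining gene of the Myc family and a member of the list of other E-box factors, was bright. It ranged from 10.81 to 11.79 at day 7 and was at 11.25, 12.28, 12.50 and 11.40 at day 20. Day 20 replicates 2 and 3 were above all other arrays, and replicates 1 and 4 fell within the day 7 range. The change was 0.53 (SE 0.34, limma adjusted p = 0.43) on 8 arrays and 1.065 (SE 0.30, adjusted p = 0.14) on the 6 Xist-positive arrays, and neither passed. Within day 20, Myc was therefore lower and Mycl higher on replicates 2 and 3 than on replicates 1 and 4, a pattern of 2 arrays against 2 that was not tested.

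Genes closest to Myc in pattern, by the root mean square difference of centred log2 values over the 8 arrays, were Ctdspl (0.105), Rps19bp1 (0.119) and Itpripl1 (0.123). The median tested gene differed from Myc by 0.299 and Myc's own root mean square deviation was 0.267. Their own changes were 0.15, 0.03 and 0.17, which the choice by likeness ties to that of Myc.

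Max, the partner that Myc and the repressors share, was at 7.32, 7.37, 7.06 and 7.16 at day 7 and at 7.21, 7.11, 7.04 and 7.42 at day 20. High and low arrays occurred on both days. The change was -0.03 (SE 0.10, 95% interval -0.27 to 0.20, limma adjusted p = 0.90). Its sign turned when day 7 replicate 2 (0.015) or day 20 replicate 3 (0.02) was dropped, and it stayed far from the threshold there. With the 6 Xist-positive arrays alone it was -0.15 (adjusted p = 0.52).

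Mxd4, a Max-binding repressor, had the largest difference among the members on the deposited scale, though Mxi1 had a larger one after subtraction of the background mode (0.72 against -0.52). Its brightest probe was at 10.71, 11.01, 11.08 and 10.66 at day 7. At day 20 it was at 10.76, 10.03, 10.08 and 10.62. Day 20 replicates 2 and 3 lay below every other array, whereas replicates 1 and 4 lay inside or next to the day 7 range, so the days overlapped. The means were 10.87 ± 0.21 and 10.37 ± 0.37 (SD, n = 4 each), a change of -0.49 (SE 0.19, 95% interval -0.92 to -0.07, unadjusted p = 0.0288, limma adjusted p = 0.18). With the 6 Xist-positive arrays alone the change was -0.81 (SE 0.14, interval -1.15 to -0.47) and it passed, with a limma adjusted p of 0.0351 against a background of 3.31% of genes called there, so this call depends on leaving out day 20 replicates 1 and 4. No single array left out gave a call, with adjusted p-values from 0.117 to 0.344.

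The 3 probes of Mxd4 did not give 1 pattern. The second probe was at 7.99, 8.0, 8.03 and 7.89 at day 7 and at 8.19, 7.79, 7.68 and 8.36 at day 20, a mean difference of 0.03. Here too day 20 replicates 2 and 3 were the lowest of all arrays, but replicates 1 and 4 were the highest. The third probe differed by -0.26, with day 7 replicate 2 highest at 8.27 and day 20 replicate 3 lowest at 7.19. Averaging the 3 probes gave a change of -0.24 (limma adjusted p = 0.39), smaller than the -0.49 of the brightest probe by over 1.5 times. The platform annotation lists a transcript accession for the second and the third probe but none for the brightest.

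**Figure D2:**
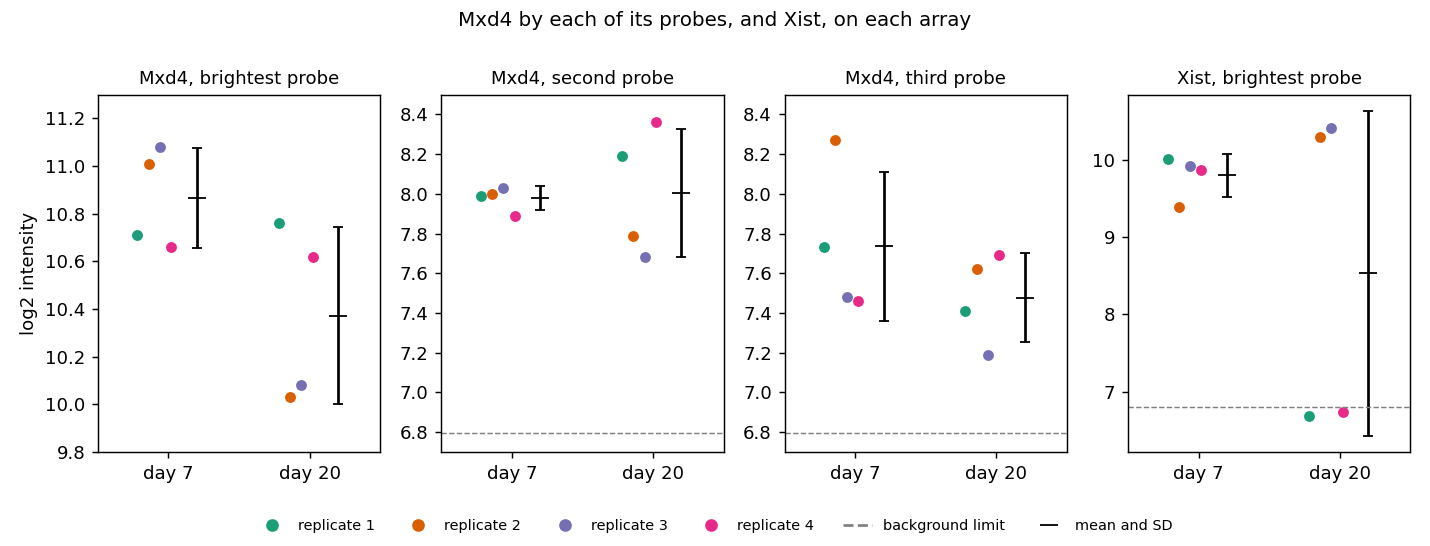
Log2 intensity of the 3 Mxd4 probes, from brightest to dimmest, and of the brightest Xist probe, on each array, with the mean and SD (n = 4 each) and the background limit of 6.796 as a dashed line (off the scale of the leftmost panel). For the brightest and the second Mxd4 probe, day 20 replicates 2 and 3 are the lowest arrays, while Xist is near the limit on day 20 replicates 1 and 4.

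Mxi1, a Max-binding repressor that is known in human cells as a target of the hypoxia-inducible factors, was the member whose days did not overlap. It was at 6.84, 6.79, 6.93 and 6.93 at day 7 and at 6.94, 7.31, 6.99 and 7.14 at day 20. The lowest day 20 array exceeded the highest day 7 array by a step of the rounding, and day 7 replicate 2 was below the limit. The change was 0.22 (SE 0.09, 95% interval 0.02 to 0.42, unadjusted p = 0.0342, limma adjusted p = 0.20). The probe is dim, and with the background mode subtracted the change was 0.72 (limma adjusted p = 0.111). Near the floor this subtraction widens noise as well as signal, so the larger value is no firmer. With the 6 Xist-positive arrays alone the change was 0.28 (adjusted p = 0.246). Mxi1 had 1 probe, and no alternative setting gave a call, with adjusted p-values from 0.111 to 0.347.

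Hypoxia genes were higher on the same arrays. Of 15 tested members of the hypoxia list, 8 rose and none fell, against 2.51% of all genes called higher, with a list median of 1.11. Car9, a carbonic anhydrase, rose by 3.04, the prolyl hydroxylase gene Egln3 by 2.79, the pyruvate dehydrogenase kinase gene Pdk1 by 2.03 and the glucose transporter gene Slc2a1 by 1.11 (limma adjusted p = 0.00117, 0.00264, 0.00479 and 0.0127). The list score, the mean of centred log2 values, was -0.788 to -0.553 at day 7. At day 20 it was 0.164, 1.211, 0.785 and 0.487 on replicates 1 to 4. Day 20 replicate 2 was the highest array and replicate 1 the lowest of its day for both the hypoxia score and Mxi1, while replicates 3 and 4 were in opposite order. Within day 7 the order differed, as replicate 2 had the highest hypoxia score (-0.553) and the lowest Mxi1 value (6.79). The count of 8 was 11 on the 6 Xist-positive arrays and 6 without day 7 replicate 1. The part of these genes in the Mxi1 values was not tested.

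Of the 3 annotated Mxi1 promoter windows, 2 held ACGTG, the core of the hypoxia response element, searched on both strands. That core overlaps the E-box and stood in 21.8% of all genes, in 14 of 17 hypoxia genes (82.4%) and in 6 of the 9 members with a window (66.7%). The bases around it are shown on the plus strand of GRCm38.p6, 5′ to 3′, with the core in capitals.

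Mxi1, chr19:53329320-53329378: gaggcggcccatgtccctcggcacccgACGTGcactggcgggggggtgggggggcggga
Mxi1, chr19:53329643-53329701: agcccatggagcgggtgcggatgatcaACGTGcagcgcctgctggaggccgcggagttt

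The core began 66 bases before the annotated start in the upper window and 25 before it in the lower window. The lower stretch lies downstream of the start annotated for the upper window. It holds an ATG with an open reading frame that runs through the core, so it may be coding sequence.

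Mxd1, the repressor tied to cell cycle exit, was at 7.53, 8.08, 7.72 and 7.58 at day 7. At day 20 it was at 7.44, 7.83, 7.43 and 7.52. Replicate 2 was the highest array of each day, and the days overlapped. The change was -0.17 (SE 0.14, 95% interval -0.49 to 0.15, limma adjusted p = 0.55), and -0.055 without day 7 replicate 2 (adjusted p = 0.861). The change was -0.0975 on the 6 Xist-positive arrays (adjusted p = 0.86), and without day 20 replicate 2 it was -0.26. The score of 9 enterocyte markers was 3.228 on day 7 replicate 2, where Mxd1 was highest, against 0.598 to 1.217 on the other day 7 arrays. On day 20 replicate 2, the array with the next highest Mxd1 value, that score was -1.583, inside the day 20 range of -1.652 to -1.439. The part of these markers in the Mxd1 values was not tested. A dimmer Mxd1 probe was also highest on day 7 replicate 2, at 7.10 against 6.75 to 6.85 elsewhere, and the third probe was below the limit on all arrays.

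**Figure D3:**
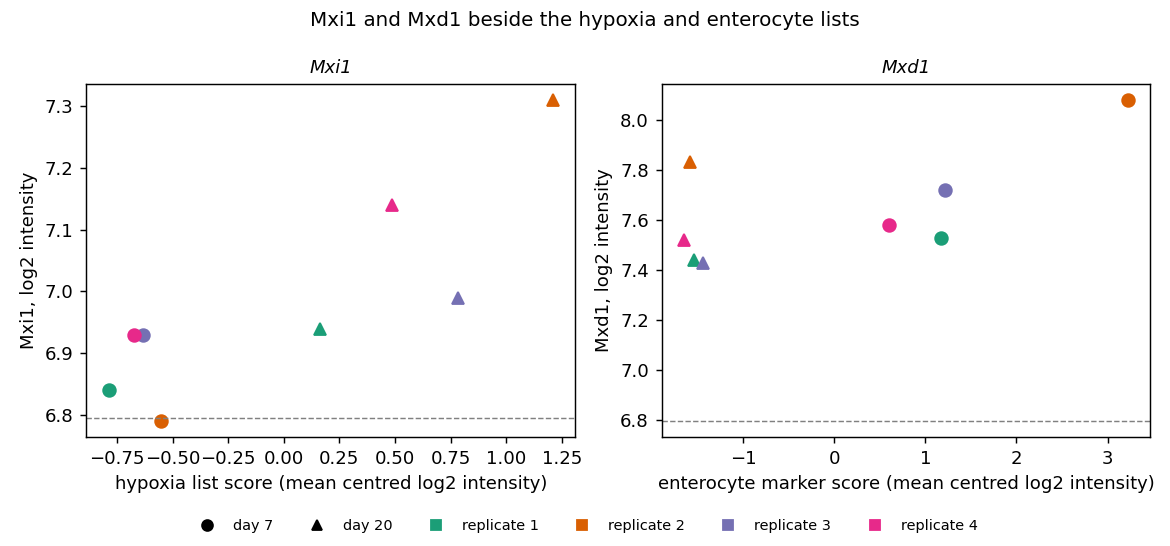
Log2 intensity of Mxi1 (left) and Mxd1 (right) on the vertical axes against the hypoxia list score and the enterocyte marker score, each the mean of centred log2 values, with 1 point per array (circles day 7, triangles day 20, colours by replicate) and the background limit of 6.796 dashed. Day 20 replicate 2 is highest for Mxi1 and for the hypoxia score (1.211), and day 7 replicate 2 is highest for Mxd1 and for the enterocyte score (3.228). Within day 7, replicate 2 is highest for the hypoxia score (-0.553) and lowest for Mxi1 (6.79).

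Mxd3, a repressor that in mice is known from cells in S phase, was at 7.28, 7.08, 7.11 and 7.07 at day 7 and at 7.11, 7.43, 7.15 and 7.22 at day 20. The highest arrays were day 20 replicate 2 and day 7 replicate 1, and the days overlapped. The change was 0.09 (SE 0.09, 95% interval -0.10 to 0.29, limma adjusted p = 0.61). It was 0.025 without day 20 replicate 2 and was 0.14 without day 7 replicate 1 and 0.155 (adjusted p = 0.525) with the 6 Xist-positive arrays alone. Proliferation genes gave 0 calls among 14 tested (limma), against 4.85% of all genes, and 2 at an unadjusted p under 0.05, against 20.4%, with a list median of 0.08. The ribonucleotide reductase subunit gene Rrm2 differed by 0.51 (adjusted p = 0.0635) and passed without day 7 replicate 4 (0.61, adjusted p = 0.0348). Aurkb, a mitotic kinase gene, differed by 0.28 (adjusted p = 0.155), Pcna, the replication clamp gene, by 0.165 (0.26) and the helicase subunit gene Mcm7 by 0.31 (0.477).

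Mnt, the repressor that is broadly made and opposes Myc in most cells, was at 6.98, 6.78, 7.04 and 6.91 at day 7 and at 6.98, 6.93, 7.13 and 7.03 at day 20. Day 7 replicate 2 was below the limit, and the days overlapped. The change was 0.09 (SE 0.07, 95% interval -0.08 to 0.26, limma adjusted p = 0.55). It was 0.10 on the 6 Xist-positive arrays and 0.04 without day 7 replicate 2.

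Mga, a large protein that pairs with Max and belongs to a Polycomb complex, was at 6.93, 6.93, 6.94 and 7.19 at day 7. At day 20 it was at 7.11, 7.15, 6.97 and 6.80. The highest and the lowest arrays were day 7 replicate 4 and day 20 replicate 4, and the change of 0.01 (SE 0.10, 95% interval -0.21 to 0.23, limma adjusted p = 0.97) changed sign with the arrays left out (-0.04 to 0.08). It was 0.0625 on the 6 Xist-positive arrays (adjusted p = 0.836). Among genes of the Polycomb complex that holds Mga, 0 of 9 tested passed (limma), against 4.85% of all genes, and 1 had an unadjusted p under 0.05, against 20.4%, with a median of 0.01. The methyl-lysine binding subunit gene L3mbtl2 came closest, at 7.45, 7.21, 7.26 and 7.55 on day 7 and 7.90, 7.76, 7.56 and 7.68 on day 20. All day 20 values were higher than all day 7 values, and the change was 0.36 (SE 0.10, adjusted p = 0.0881). The ubiquitin ligase subunit genes Rnf2 and Ring1 differed by 0.09 (0.367) and 0.16 (0.665), and Rybp differed by -0.105 (0.44).

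Mlx, which pairs with MondoA and ChREBP and not with Max, was at 6.98, 7.09, 7.07 and 6.97 at day 7 and at 6.86, 6.95, 6.92 and 6.98 at day 20. Day 20 values were lower except for replicate 4, which fell inside the day 7 range. The change was -0.10 (SE 0.05, 95% interval -0.23 to 0.03, limma adjusted p = 0.36) and -0.33 after subtraction of the background mode (adjusted p = 0.261). On the 6 Xist-positive arrays the change was -0.0925 (adjusted p = 0.562). A second Mlx probe differed by -0.005, and averaged probes gave -0.0525 (adjusted p = 0.586). The dimmest Mlx probe, above the limit on 1 array, differed by 0.0475. Mlxipl, encoding ChREBP, differed by -0.575 (SE 0.26, adjusted p = 0.267), with day 7 replicate 2 highest at 11.18 and a change of -0.34 without it. Among other E-box factors, 0 of 6 tested passed (limma), against 4.85% of all genes, and 0 had an unadjusted p under 0.05, against 20.4%. Usf1 was at -0.12 (adjusted p = 0.361) and Usf2 at -0.09 (0.613).

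**Figure D4:**
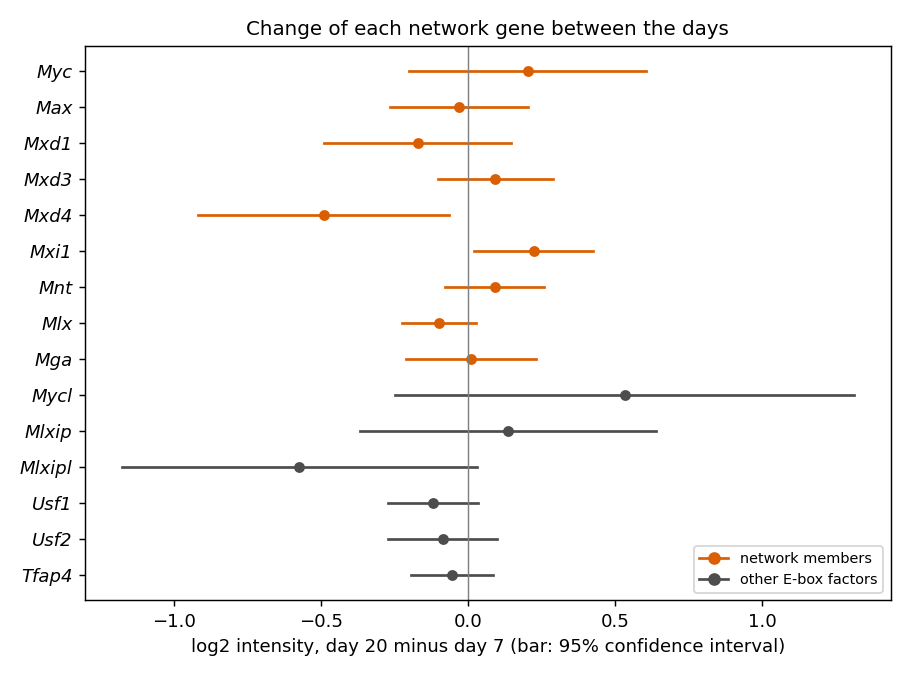
Log2 change, day 20 minus day 7, of the 9 tested network members (orange) and 6 other E-box factors (grey), with 95% confidence intervals from limma over 8 arrays. Mxd4 at -0.49 and Mxi1 at 0.22 are the members whose intervals leave out 0, and neither passed after adjustment over 12466 genes.

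A change in the balance of Myc and its partners was examined as the difference of each member from Myc within an array, which asks whether the 2 genes changed unequally. Over 8 such comparisons with an exact two-sided permutation test of 70 relabellings (smallest possible p = 0.0286), none passed after Benjamini-Hochberg adjustment. Mxd4 relative to Myc gave the largest value, -0.695 (exact permutation p = 0.0571, adjusted p = 0.457). Mxd1 relative to Myc was at -0.375, Mlx at -0.30, Max at -0.235, and Mxi1 at 0.02, with adjusted p-values from 0.533 to 0.943. Mxd3, Mnt and Mga lay at -0.11, -0.11 and -0.19. With the 6 Xist-positive arrays alone these 3 turned to 0.19, 0.14 and 0.10, where 2 arrays at day 20 allow no exact permutation p below 0.0667.

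Genes of proteins that act with the network gave no call, where 4.85% of all genes were called and 20.4% had an unadjusted p under 0.05. Myc coactivators, the acetyltransferase and chromatin remodelling subunits that Myc recruits, gave 0 of 9 tested (limma, 1 at an unadjusted p under 0.05; median -0.04). The ATPase genes Ruvbl2 and Ruvbl1 were at 0.28 (adjusted p = 0.144) and -0.16 (0.537), the actin-related subunit gene Actl6a at 0.35 (0.277) and the scaffold gene Wdr5 at 0.33 (0.332). The Sin3 and histone deacetylase genes through which Mxd proteins repress, with Zbtb17 (Miz1, through which Myc represses), gave 0 of 7 (limma, 2 at an unadjusted p under 0.05; median 0.00). Suds3 was at -0.26 (adjusted p = 0.164), Zbtb17 at -0.30 (0.178), Sap30 at 0.14 (0.603) and Hdac2 at 0.09 (0.761). Genes of Myc protein turnover gave 0 of 11 (limma, 0 at an unadjusted p under 0.05; median 0.02), with the stabilising factor gene Cip2a at 0.065 (0.501), the ubiquitin ligase genes Skp2 at -0.075 (0.718), Huwe1 at 0.06 (0.725) and Btrc at -0.09 (0.742). RNA does not report Myc protein, whose level these factors set.

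Genes that Myc is known to induce, mainly of ribosome production, nucleotide synthesis and growth, were higher in 1 of 33 tested and lower in none, against 2.51% and 2.33% of all genes, with a median of 0.075 (-0.08 on the 6 Xist-positive arrays). The gene that rose was Ldha, encoding lactate dehydrogenase, also known as a gene of glycolysis and low oxygen. It was at 13.45, 14.31, 13.48 and 13.59 at day 7 and at 14.40, 14.99, 14.72 and 14.53 at day 20, with every day 20 array above every day 7 array. The change was 0.95 (SE 0.21, limma adjusted p = 0.0394). Dropping day 7 replicate 1, 3 or 4 ended the call (adjusted p = 0.108, 0.098 and 0.0917), as did dropping any day 20 array (0.0558, 0.0899, 0.0799 and 0.079 for replicates 1 to 4). Cyclic loess (0.0545), an unfiltered fit (0.0616) and the 6 Xist-positive arrays (0.076) ended it too. Prmt1, an arginine methyltransferase gene, was at -0.27 (adjusted p = 0.091), the translation factor gene Eif4a1 at -0.22 (0.113) and the kinase gene Cdk4 at -0.345 (0.137). An unadjusted limma p under 0.05 was seen for 9 of 33, against 20.4% of all genes. Besides Ldha and these, they were Tfrc (0.43), Hspe1 (0.43), Ccnd2 (0.41) and Apex1 (0.355), higher by mean, and Cdca7 (-0.33), lower.

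Genes that Myc is known to repress were higher in 2 of 9 tested and lower in none, against 2.51% of all genes higher, with a median of 0.04 (-0.09 on the 6 Xist-positive arrays). Cdkn1a, encoding the cell cycle inhibitor p21, was 11.52 ± 0.13 on the earlier day and rose to 12.34 ± 0.19 (SD, n = 4 each; log2 change 0.815, SE 0.11, limma adjusted p = 0.0049). Cdkn2b, encoding the inhibitor p15, was at 7.79, 8.5, 8.55 and 8.22 at day 7 and at 9.02, 8.91, 8.90 and 9.08 at day 20. The days did not overlap, and it rose by 0.71 (SE 0.16, limma adjusted p = 0.0417). Dropping day 7 replicate 4 ended this call (adjusted p = 0.0932), as did dropping any day 20 array (0.0968, 0.0825, 0.0706 and 0.105 for replicates 1 to 4). An unfiltered fit (0.0631) and the 6 Xist-positive arrays (0.195) ended it too. Cdkn1b, encoding the inhibitor p27, lay in the other direction, at -0.38 (adjusted p = 0.0857), with no overlap between the days. Ndrg1, which the hypoxia list also holds, was at 1.07 (0.149).

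Targets of the Mlx arm were higher in 1 of 9 tested and lower in none, against 2.51% and 2.33% of all genes, with a median of -0.01. The gene that rose was Scd1, a fatty acid desaturase gene, by 2.215 (SE 0.38, limma adjusted p = 0.0164; 0.0542 without day 7 replicate 1). Txnip, the glucose-responsive target by which MondoA and Mlx activity is often read, was at 12.46, 12.53, 12.88 and 13.06 at day 7 and at 12.08, 12.67, 12.64 and 12.39 at day 20. The days overlapped, and the change was -0.29 (SE 0.17, adjusted p = 0.403), and -0.0775 with the 6 Xist-positive arrays alone. Elovl6, a fatty acid elongase gene, was at 0.28 (0.277), and Gpd1, of glycerol phosphate synthesis, at -0.77 (0.333). The Gpd1 value was -0.31 without day 7 replicate 2, which was at 9.63 against 7.56 to 8.0 on the other day 7 arrays.

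**Figure D5:**
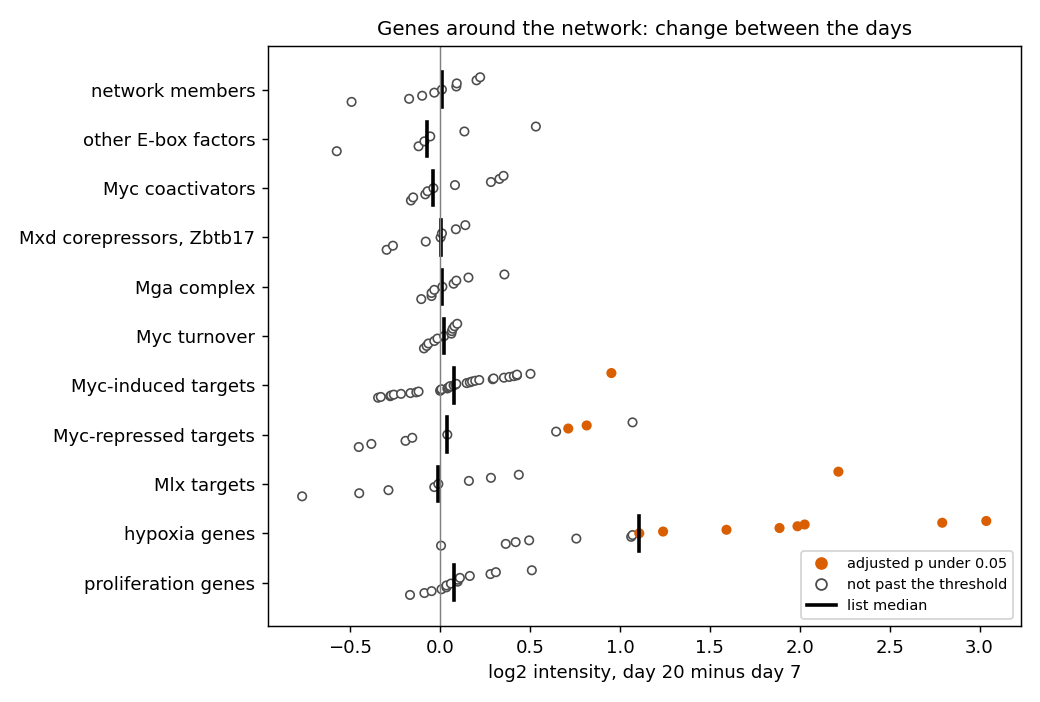
Log2 change, day 20 minus day 7, of the tested genes of each list (points; filled where the limma adjusted p was under 0.05) with the list median as a black bar. The 9 network members lie between -0.49 and 0.22 with none filled, Ldha, Cdkn1a, Cdkn2b and Scd1 are the filled points of the Myc and Mlx target lists, and 8 of 15 hypoxia genes are filled.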

How the data were processed

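RNA of 4 day 7 and 4 day 20 samples was hybridised as biotinylated cRNA to Illumina beadchips, per the labels' protocols. The authors deposited normalized log2 intensities; their software, background correction and normalization method were not given in the sources used here. Each array had the same median (6.81) and maximum (15.43). The non-normalized table that was also deposited was left out, since none of its 16 columns besides the probe identifier could be tied to a sample by name. Its detection p-values were therefore not used, and a background limit took their place. Of 45281 probes, 34885 had 1 gene symbol in the platform annotation, 18 had several and 10378 were unnamed here. The background limit, 6.796, marks the upper 0.05 of a normal distribution centred on the commonest value (6.7) with the SD seen below it (0.05837). Genes above it on at least 4 of 8 arrays (12466 of 19057) entered limma 3.58.1 (R 4.3.3; lmFit, eBayes, no covariates, two-sided, Benjamini-Hochberg). On data simulated with normal noise of each gene's own SD, the fit recovered 58% of added log2 changes of 0.5 and 89.2% of changes of 1. Of its calls there, 5.63% were false. A change of 0.5 or less could thus go without a call. Promoters came from RefSeq, GRCm38.p6. Figures used matplotlib 3.10.9.

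The members, lists and tests were chosen with earlier results of these data known. Named genes were the members, up to 4 genes per list by adjusted p, Xist, Eif2s3y, and the 3 genes nearest Myc in pattern. Marker genes and the other Myc-induced targets with an unadjusted p under 0.05 were named in addition. Alternatives were a replicate block, cyclic loess, no filter, a strict filter (limit 6.836), averaged probes, trend with robust variance, background mode subtraction with an offset of 16, the 6 arrays with Xist signal, and each array left out.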

Additional observations from a re-analysis of the deposited data

Results flagged for a closer look

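In 7 of 98 groups of 4 arrays examined (49 genes on both days), 1 array lay apart from the other 3 by more of the group's range than Dixon's critical value for 4 samples; chance gives about 1 in 20. Among the members this held for Mga, at 7.19 on day 7 replicate 4 against 6.93 to 6.94 on the other day 7 arrays. Day 7 replicate 2 stood apart for Ldha (14.31 against 13.45 to 13.59), Ndrg1 (11.27 against 10.08 to 10.17) and Wdr5 (8.07 against 8.62 to 8.69). Day 7 replicate 1 stood apart for Sap30 (12.50 against 12.02 to 12.09) and Suds3 (12.55 against 12.70 to 12.73). Day 20 replicate 1 stood apart for Pcna (7.60 against 7.37 to 7.39).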

How the results depend on the processing

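The count of changed members was 0 in every alternative run except the 6 arrays with Xist signal, where it was 1 (Mxd4). Over 9 members and these alternatives, 135 changes kept their direction and stayed short of the threshold, 1 passed it (Mxd4) and 8 took the opposite sign without passing: Myc on the 6 arrays with Xist signal (-0.0375), Max (range with 1 array left out -0.1075 to 0.0192) without day 7 replicate 2 (0.015) or day 20 replicate 3 (0.0192), and Mga without day 7 replicates 1, 2 and 3 (-0.0125, -0.0125 and -0.0092) or day 20 replicates 1 and 2 (-0.0242 and -0.0375; range -0.0375 to 0.0792). With the background mode subtracted, changes of dim members grew (among them Mxd3 0.23, Mxi1 0.72, Mnt 0.32, Mlx -0.33) except Mga (0.0073), as did those of Mxd1 (-0.30) and Myc (0.33), and none passed. Relative to Myc, on the 6 arrays with Xist signal Mxd3 (0.1925), Mnt (0.14) and Mga (0.10) took the opposite sign, and with single arrays left out Mxi1 ranged from -0.1783 to 0.1383; none passed. Among list genes, Hdac2 turned with averaged probes (-0.0437) and without day 20 replicate 2 (range with 1 array left out -0.0083 to 0.1625), and Btrc on the 6 arrays with Xist signal (0.035). The replicate block gave 401 changed genes, 207 higher and 194 lower, and 0 members; same-numbered arrays of the days deviated together with r of 0.119, 0.05, -0.01 and 0.142 across genes, so the numbers were not taken to pair samples, and not every array correlated best with its own number. Cdkn2b missed the threshold with the block (0.0936). With 1 array left out, changed genes ranged from 301 to 579, higher genes from 140 to 251 and lower genes from 161 to 328; on the 6 arrays with Xist signal 141 genes were lower and 272 higher, so higher genes made up a larger share. Among changes of named list genes, 617 kept their call or lack of it, 19 lost it and 1 gained it. The causes were not tested. Of the members, 7 were above the limit on all arrays, and Mycn was above it on none.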
